A study of Drosophila melanogaster with 4 samples.

Results

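RNA-seq libraries from thoraces of RU486-fed female flies were compared between Act88FGS>MEF2 RNAi and Act88FGS>w1118. These are 2 of the 4 libraries of the series, 1 for each genotype, and the comparison was made over all 13012 genes of the deposited table. Both libraries were picked by their labels, but earlier results of these data were known when the choice was made. The other 2 libraries are the same genotypes kept without RU486, as an ethanol control.

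All flies carried the w1118 background, a deletion allele of the eye pigment gene white, and 1 copy of Act88FGS. In this GeneSwitch driver the flight muscle actin promoter makes a GAL4 fusion that acts when the flies eat RU486 (mifepristone). MEF2 RNAi flies also carried 1 copy of UAS-MEF2 RNAi, and w1118 flies carried no RNAi transgene in its place. The flies were 10 days old and were kept on a high calorie diet. Each library was total RNA of 8 pooled thoraces, which hold flight muscle together with gut, nerve cord, fat body, trachea and blood cells. With 1 library for each condition and 1 RNAi line, no difference has a replicate check, and no test or error between replicates can be given. In pooled tissue, a smaller number of cells of a type and less RNA per cell cannot be told apart.

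MEF2 is a MADS box transcription factor that switches on genes for sarcomere proteins as muscle forms and stays present in adult flight muscle. Flight muscle is built of thick filaments of myosin and thin filaments of actin, joined at Z-discs, and is packed with mitochondria that burn sugar for flight. Adult muscle fibres do not divide. Genes for mitosis and for the making of an egg are in adult females known mainly from the ovary.

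The deposited values are log2 values centred gene by gene. In every gene the 4 values add up to 0 (largest departure 7e-15). A value therefore says how far a library lies, in log2 units, from the gene's own mean, and it gives no expression level. The table gives no read totals, and the depth behind a value is unknown. A genotype difference is here the value in MEF2 RNAi minus that in w1118, and its fold is 2 to that power. In 2098 genes (16.1%) all 4 values lay within 0.1 of 0, and 1963 genes shared all 4 values with another gene. Differences of these genes hold little information.

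The RU486-fed libraries did not lie at the same level. Their medians over all genes were -0.18 for MEF2 RNAi and 0.17 for w1118. Without RU486 the medians were 0.19 for MEF2 RNAi and -0.18 for w1118. The median deposited difference with RU486 was -0.36, and 93.6% of genes were lower in MEF2 RNAi. The quartiles were -0.47 and -0.16. Genes near 0 had a median difference of -0.04 and the other genes of -0.40. The bin of width 0.05 with the most genes, from -0.45 to -0.4, held 12.3% of them. Cytosolic ribosomal protein genes had a median of -0.41. The medians of MEF2 RNAi with RU486 and w1118 without it were alike, and so were those of the other 2 libraries. A difference in scale between the libraries, a lower level of most transcripts and an exchange of libraries between RU486 labels cannot be told apart, and an exchange would change what every genotype difference here compares. Differences are therefore given after the median over all genes was subtracted from each library, which adds 0.35 to every deposited difference. A deposited difference is thus 0.35 below the one printed, and it is printed for some of the genes and lists only. Genes near 0 then have a median difference of 0.31 from this shift alone.

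**Figure D1:**
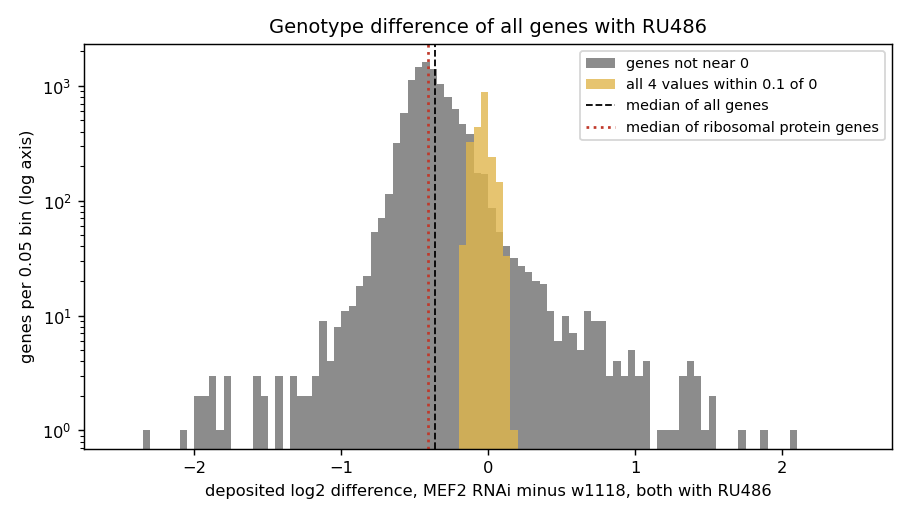
Histogram of the deposited log2 difference, MEF2 RNAi minus w1118 with RU486, for 13012 genes in bins of 0.05 on a log count axis. Genes whose 4 values lie within 0.1 of 0 (yellow) centre near 0 at -0.04, while the other genes (grey) centre at -0.40, and the median of all genes (dashed, -0.36) lies near that of ribosomal protein genes (dotted, -0.41).

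Mef2, the target of the RNAi, lies on chromosome 2R at 9913496 to 9958858. Positions are those of the Ensembl BDGP6 annotation, and the authors' own build is not given in the sources used here. Mef2 was at -0.38 in MEF2 RNAi and 0.22 in w1118 with RU486. Without RU486 its values were 0.25 and -0.10. Its genotype difference with RU486 was -0.26, a fold of 0.838, and -0.60 as deposited. Without RU486 the difference was -0.02. Mef2 was the lowest of 20 muscle transcription factor genes in the fed pair. As deposited it was at least 1.5-fold lower, as were 6.26% of all genes, but not 2-fold lower. After median subtraction, at -0.26, it passed neither the 2-fold nor the 1.5-fold rule. The spread of single genes was of like size, with a standard deviation of 0.24 over all genes. The driver acts in flight muscle, and the libraries hold the RNA of the whole thorax. The gene white (w), of which many fly transgenes carry a copy as a marker, was at -0.06 in MEF2 RNAi and -0.38 in w1118 with RU486, and at 1.22 and -0.78 without. It was higher in MEF2 RNAi in both pairs, by 0.67 with RU486 and by 1.64 without.

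After median subtraction, 67 of 13012 genes (0.515%) were at least 2-fold higher in MEF2 RNAi and 21 (0.161%) at least 2-fold lower. The median difference was 1.25 among the 67 genes and -1.44 among the 21, with -0.02 over all genes. At a 1.5-fold rule 175 genes (1.34%) were higher and 68 (0.523%) lower. On the deposited values 26 genes (0.2%) were 2-fold higher and 52 (0.4%) 2-fold lower, so the side with more genes depends on the subtraction. The same constant is added to every gene, so the 26 genes are necessarily among the 67 and the 21 genes among the 52. For the same reason all 67 genes must be above 0 on the deposited scale. A gene near 0 in all 4 libraries cannot reach the 2-fold rule, so none was called.

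Most genes of each called set stood out in 1 library. Of the 67 higher genes, 63 had their highest value of the 4 libraries in MEF2 RNAi with RU486, against 3.97% of all genes. The 2-fold rule itself favours a high value in that library. The set had a median value of 0.78 there, of -0.18 in w1118 with RU486, of -0.25 in MEF2 RNAi without RU486 and of -0.38 in w1118 without it. Of the 21 lower genes, all 21 had their highest value in w1118 with RU486, which the rule also favours and which held for 44.6% of all genes. Their median value was 1.32 in that library and -0.47, -0.40 and -0.47 in MEF2 RNAi with RU486, MEF2 RNAi without it and w1118 without it. The lower set is thus made of genes that were high in the control library with RU486, and in MEF2 RNAi with RU486 they were near their values in the libraries without RU486. Only 10 of the 21 were lowest of the 4 in MEF2 RNAi with RU486.

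**Figure D2:**
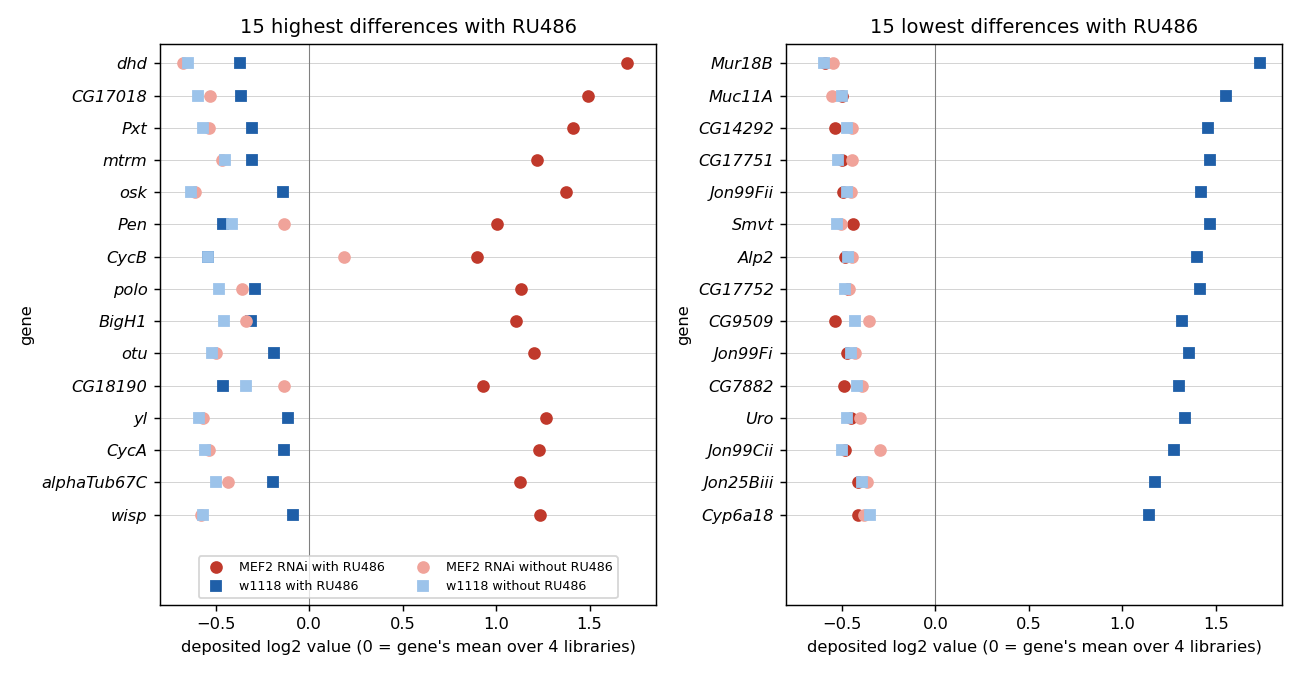
Deposited log2 values of the 15 genes with the highest (left) and the 15 with the lowest (right) genotype difference with RU486, 1 point for each library. On the left MEF2 RNAi with RU486 (dark red) is above the other 3 libraries in every gene, from 0.90 for CycB to 1.70 for dhd, and on the right w1118 with RU486 (dark blue) is, from 1.14 for Cyp6a18 to 1.74 for Mur18B.

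Genes of the egg and the early embryo headed the higher set. The highest difference was that of dhd (deadhead, a thioredoxin of the egg that helps to unpack sperm chromatin; chromosome X, 5312171 to 5313125). Its value was 1.70 in MEF2 RNAi and -0.37 in w1118 with RU486, and -0.68 and -0.65 in the genotypes without RU486. The libraries without RU486 were together at the bottom and w1118 with RU486 was only slightly above them. The difference was 2.42 after median subtraction, 5.33-fold, and 2.07 as deposited. Pxt, a peroxidase needed in the ovary for follicle maturation, was at 1.41 and -0.31 with RU486, a difference of 2.06 (4.18-fold). CG17018, for which no role is given here, was at 1.49 and -0.37, a difference of 2.20.

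Of 20 meiosis and egg activation genes, 6 were 2-fold higher (0.515% of all genes were) and none lower (0.161%), and their median was 0.45. The 6 were dhd, mtrm, alphaTub67C, wisp, gnu and fs(1)Ya. The Polo inhibitor mtrm (matrimony), which holds oocytes in meiotic prophase, was at 1.22 in MEF2 RNAi and -0.30 in w1118, and at -0.47 and -0.45 without RU486. Its difference was 1.87. The maternal alpha tubulin gene alphaTub67C had a difference of 1.67, and so did wisp, a poly(A) polymerase that lengthens the tails of stored maternal RNAs. The mitotic control gene gnu of the early embryo had 1.64 and the nuclear envelope gene fs(1)Ya had 1.59. The lowest member was sra (-0.11). Of the 20 genes, 12 had their highest value in MEF2 RNAi with RU486, against 3.97% of all genes.

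Of 33 maternal patterning and oogenesis genes, 8 were 2-fold higher (0.515% of all genes were) and none lower (0.161%), with a median of 0.28. The posterior determinant osk (oskar) was at 1.38 in MEF2 RNAi and -0.14 in w1118 with RU486, and at -0.61 and -0.63 without. Its difference was 1.86, 3.63-fold. The other members were Pxt, dhd, otu (1.74), a gene of germ cell differentiation, yl (1.73), the yolk protein receptor of the oocyte, nos (1.66), the posterior translational repressor nanos, swa (1.54), which helps to place bicoid RNA, and vas (1.10), the germline RNA helicase vasa. In yl the values were 1.27 and -0.11 with RU486 and -0.57 and -0.59 without. The list did not move as 1 block, since 10 of its 33 genes were below the median of all genes, down to bgcn at -0.41.

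The piRNA pathway silences transposons in the germline. Of its 25 genes, 2 were 2-fold higher (0.515% of all genes were), and the median was 0.43. The Tudor domain gene krimp was at 0.60 and -0.16 with RU486 and at -0.19 and -0.25 without, a difference of 1.10. AGO3, an Argonaute protein of the amplification cycle, had 0.68 and -0.06 with RU486, a difference of 1.09. In 16 of the 25 genes the highest value was in MEF2 RNAi with RU486, against 3.97% of all genes.

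Eggshell genes, which follicle cells around the late egg chamber express, were not among the higher genes. None of 18 passed the 2-fold rule, which is near the share of all genes (0.515% higher and 0.161% lower). None had its highest value in MEF2 RNAi with RU486 (3.97% of all genes did), and 14 had it in w1118 with RU486 (44.6% did). Their deposited median was -0.11, and 0.24 after median subtraction, and 6 of the 18 were near 0 in all libraries. Their range was from yellow-g (-0.08) to Cp15 (0.34).

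Cell division genes formed the second large group. In the lists for cyclins, DNA replication and mitosis, which hold 89 genes, 16 genes (18%) were 2-fold higher against 0.515% of all genes. Of the 89, 36 (40.4%) were 1.5-fold higher, against 1.34% of all genes. None was 2-fold lower (0.161% of all genes were). The lists for meiosis, maternal genes and the piRNA pathway hold 77 genes, of which 15 (19.5%) were 2-fold higher. Thus 31 of the 67 higher genes belonged to lists of these 6 processes. As deposited, the lists for mitosis (0.16), meiosis (0.10), the piRNA pathway (0.08) and DNA replication (0.02) were the only 4 of 56 with a median above 0, while cyclins had -0.14 and maternal genes -0.07. The lists were chosen with results of these data known, so the counts describe the genes and are not independent evidence of a direction. Values of dividing tissue and of germ cells cannot be told apart here, since many of these genes are also made in the ovary.

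Of 25 genes for cyclins, their kinases and regulators, 6 were 2-fold higher (0.515% of all genes were) and none lower (0.161%). The median was 0.21. CycB, the B-type mitotic cyclin, was at 0.90 in MEF2 RNAi and -0.54 in w1118 with RU486. Without RU486 its values were 0.19 and -0.54. CycB was the only gene of these 6 in which MEF2 RNAi without RU486 was more than 0.1 above both w1118 libraries, and its difference was 1.79 with RU486 and 0.36 without. CycA, the A-type cyclin, was at 1.23 and -0.14 with RU486 and at -0.54 and -0.56 without. Its difference was 1.71 (3.28-fold). CycB3 had 1.40, CycE, which drives entry into S phase, 1.34, the mitotic kinase Cdk1 1.27 and its activating phosphatase stg (string) 1.12. For CycE the values were 0.79 and -0.21 with RU486 and -0.20 and -0.38 without. The lowest member was CycT (-0.20), a cyclin of transcription elongation rather than of the cell cycle.

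Of 30 DNA replication genes, 4 were 2-fold higher (0.515% of all genes were) and 12 were 1.5-fold higher (1.34%), with a median of 0.37. The sliding clamp gene PCNA was at 0.76 in MEF2 RNAi and -0.22 in w1118 with RU486 and at -0.09 and -0.45 without, a difference of 1.33. The origin recognition gene Orc2 had 1.10, and the helicase subunits Mcm7 and Mcm5 had 1.06 and 1.02. Mcm7 overlaps CR45871, a noncoding gene that was also called (1.05), and the sources used here do not say how overlaps were counted. The origin recognition gene Orc5 was the lowest member at -0.42.

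Of 34 mitosis genes, 6 were 2-fold higher (0.515% of all genes were), 16 were 1.5-fold higher (1.34%) and none was lower by either rule (0.161% and 0.523%). Their median of 0.50 was the highest of all lists, and 19 of the 34 were highest in MEF2 RNAi with RU486, against 3.97% of all genes. The mitotic kinase polo was at 1.13 in MEF2 RNAi and -0.29 in w1118 with RU486, and at -0.36 and -0.48 without. Its difference was 1.77, 3.40-fold. The spindle pole gene asp had 1.40, borr (borealin of the chromosomal passenger complex) 1.32, the midzone gene feo 1.23, pim (the fly securin) 1.03 and the spindle kinesin Klp61F 1.03. Klp10A, a kinesin that shortens microtubules, was the lowest member at -0.13.

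Several of the 31 higher genes that are in no list have known roles in the same processes. Those outside the 15 highest were chosen after their values were seen. Pen, an importin alpha of the germline, was at 1.01 and -0.46 with RU486 and at -0.13 and -0.41 without, a difference of 1.82. BigH1, the linker histone of the germline and early embryo, had 1.76, and CG18190 had 1.74. The greatwall kinase gene gwl had 1.32, zpg, the gap junction protein of germ cells, 1.37, and the centrosome gene spd-2 1.25. The spindle orientation gene mud had 1.08 and Cks30A, a partner of Cdk1, 1.05. Among the ribosomal protein genes, RpS5b alone of 86 passed the rule, with 0.95 and -0.11 with RU486 and -0.40 and -0.44 without. Its difference was 1.40, while that of its paralog RpS5a was -0.09.

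Germline markers overlap the genes above, since 4 of the 6 in the table are called genes, and their values are a description. For germline markers the mean deposited value of the 6 genes in the table (osk, nos, vas, orb, otu and BicC) was 0.79 in MEF2 RNAi with RU486, and -0.15, -0.29 and -0.35 in w1118 with RU486, MEF2 RNAi without it and w1118 without it. All 6 were highest in MEF2 RNAi with RU486, and summed over the genes the values were 4.73 in that library and between -2.10 and -0.90 in the others. For follicle cell and eggshell markers the mean was -0.0041 in MEF2 RNAi and 0.17 in w1118 with RU486. The part of germline RNA in the difference of the cell division genes was not tested.

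**Figure D3:**
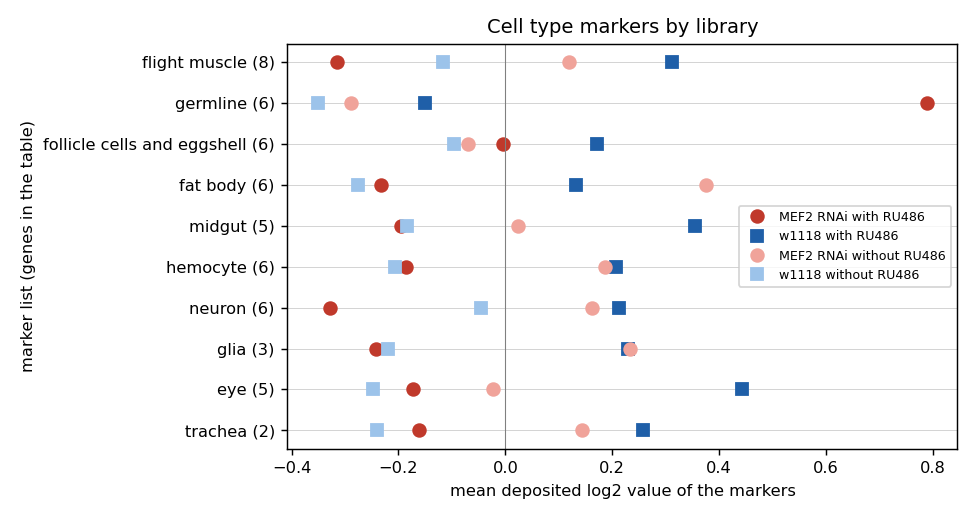
Mean deposited log2 value of each marker list in each of the 4 libraries, with the number of genes in the table in brackets. Germline markers stand at 0.79 in MEF2 RNAi with RU486 (dark red) and at or below -0.15 elsewhere. Flight muscle markers stand at -0.32 in MEF2 RNAi with RU486 and at 0.31 in w1118 with RU486 (dark blue). Neuron (-0.33 and 0.21), midgut (-0.20 and 0.36) and eye markers (-0.17 and 0.44) differ in the same direction. Library medians over all genes, which are not subtracted here, were -0.18 and 0.17.

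Mucin-related genes and Jonah proteases headed the lower set. Mur18B, a mucin-related gene (chromosome X, 19213254 to 19214938), had the lowest difference of all genes. Its value was 1.74 in w1118 with RU486, and -0.59, -0.55 and -0.60 in MEF2 RNAi with RU486, MEF2 RNAi without it and w1118 without it. The other 3 libraries were within 0.1 of each other. The difference was -1.98, a fold of 0.253, and -2.33 as deposited. The mucin gene Muc11A had 1.55 in w1118 with RU486 and -0.50 in MEF2 RNAi with RU486, a difference of -1.71.

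Jonah genes encode serine proteases of the midgut. Of 15 Jonah genes, 5 were 2-fold lower and none higher, against 0.161% of all genes 2-fold lower. All 15 had their highest value in w1118 with RU486, as did 44.6% of all genes. Jon99Fii was at -0.49 in MEF2 RNAi and 1.42 in w1118 with RU486, and at -0.45 and -0.47 without. Its difference was -1.57, 0.337-fold. Jon99Fi had -1.48, Jon99Cii -1.41, Jon25Biii -1.25 and Jon99Ciii -1.05. The remaining 10 genes ranged from -0.56 for Jon65Aiv to 0.18 for Jon44E, and the median of the list was -0.37. Jon99Fi and Jon99Fii lie 1035 bases apart on chromosome 3R and Jon99Cii and Jon99Ciii 299 bases apart. They are close paralogs, and how reads that match both copies were counted is not stated, so the members of each pair may not be independent. Among 10 other trypsin-like digestive proteases none passed the 2-fold rule (0.515% of all genes were higher and 0.161% lower). The lowest was yip7 at -0.61, and 5 of the 10 were near 0. The 5 midgut markers in the table had mean values of -0.20 in MEF2 RNAi and 0.36 in w1118 with RU486, and of 0.02 and -0.18 without RU486.

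Genes for transporters and enzymes were also in the lower set. Smvt, a sodium-dependent vitamin transporter, was at -0.44 in MEF2 RNAi and 1.47 in w1118 with RU486, a difference of -1.56. Alp2, an alkaline phosphatase, had -1.54 and NaPi-T, a sodium-dependent phosphate cotransporter, -1.06. Uro, the urate oxidase gene that in adult flies is expressed in the Malpighian tubules, was at -0.45 and 1.33 with RU486 and at -0.40 and -0.48 without. Its difference was -1.44. The neighbouring genes CG17751 and CG17752, 903 bases apart on chromosome 3R, had -1.62 and -1.54. CG14292 (-1.65), CG9509 (-1.51) and CG7882 (-1.44) completed the 15 lowest with Cyp6a18.

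In the cytochrome P450 family, enzymes that oxidise hormones, toxins and drugs, 1 of 86 genes was 2-fold higher (0.515% of all genes) and 1 was 2-fold lower (0.161%), with a median of -0.06. Cyp6a18 was at -0.41 in MEF2 RNAi and 1.14 in w1118 with RU486 and at -0.38 and -0.35 without, a difference of -1.21. Cyp6a19 was at 0.92 and -0.12 with RU486 and at -0.40 and -0.39 without, a difference of 1.39. Each of these was high in 1 library only, and not in the same one. Of 35 glutathione S-transferase genes none passed the 2-fold rule (0.515% of all genes were higher and 0.161% lower). The highest, GstD5, was at 0.95 and 0.51 with RU486 and at -0.69 and -0.76 without, so that it was higher with RU486 in both genotypes, and its genotype difference was 0.79.

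No gene of the muscle lists passed the 2-fold rule in either direction, which is near the share of all genes (0.515% higher and 0.161% lower). The 5 lists for muscle transcription factors, thin filament, thick filament, Z-disc and attachment, and calcium handling hold 94 genes, with a median of -0.18 against -0.02 for all genes. Of these, 84 (89.4%) were below the median of all genes. On the deposited scale the median was -0.52, and 26 of the 94 (27.7%) were at least 1.5-fold lower, against 815 of all genes (6.26%). After median subtraction none of the 94 was 1.5-fold lower (0.523% of all genes were) and 1 was 1.5-fold higher (1.34%), both near those shares. Genes near 0, which have a median of 0.31, raise the median of all genes, and that of the genes not near 0 was -0.05.

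Thick filament genes were the lowest of these lists, with all 12 below the median of all genes and a median of -0.30. Set against the ribosomal protein genes, it was -0.24. The lowest was fln (flightin), a thick filament protein particular to flight muscle, at -0.27 in MEF2 RNAi and 0.66 in w1118 with RU486, and at -0.29 and -0.10 without. Its difference was -0.58 with RU486 and -0.56 without, and as deposited -0.93 and -0.19. Mhc, the muscle myosin heavy chain, was at -0.37 and 0.34 with RU486 and at 0.25 and -0.23 without, and its difference was -0.36. The titin-like genes sls and bt had -0.37 and -0.30. The highest was Mlc-c, a light chain of nonmuscle myosin, at -0.03.

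All 27 Z-disc and attachment genes were below the median of all genes, from cher (filamin, -0.33) to LanB1 (laminin beta, -0.04). Of 19 thin filament genes 16 were below it, from sals (-0.35), which lengthens thin filaments, to TpnC47D (0.25), a troponin C gene with values near 0. Act88F, the flight muscle actin whose promoter drives the GeneSwitch, was at -0.13 and 0.34 with RU486 and had a difference of -0.12. Of 16 genes for calcium handling and the nerve-muscle junction, GluRIIA, a glutamate receptor subunit of that junction, was lowest at -0.32. GluRIIC, an essential subunit of the same receptors, went the other way. It was at 0.22 in MEF2 RNAi and -0.32 in w1118 with RU486 and at 0.73 and -0.63 without, and its difference was 0.89 with RU486 and 0.99 without.

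No gene of energy metabolism passed the 2-fold rule either. Of all genes 0.515% were higher and 0.161% lower by that rule, so the absence of calls is near the share of all genes. In 220 genes for respiration, the TCA cycle, glycolysis, mitochondrial ribosomes and mitochondrial quality control, the median was -0.13 and 165 (75%) were below the median of all genes. That share was 76.7% in 103 translation genes and 79% in 62 lipid genes, whose medians were -0.06 and -0.09. The 220 genes are not alike, since 35 of the 72 mitochondrial ribosomal protein genes were below the median of all genes. In complex I 31 of 36 genes were below it, and in complex IV 7 of 11. On the deposited scale 48 of the 220 (21.8%) were at least 1.5-fold lower, against 6.26% of all genes. After median subtraction 1 of the 220 was, against 0.523% of all genes. That gene was Acon, the mitochondrial aconitase, at -0.53 in MEF2 RNAi and 0.40 in w1118 with RU486 and at 0.19 and -0.06 without. Its difference was -0.59, and the 14 TCA cycle genes had a median of -0.25, all of them below the median of all genes.

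The medians of the respiratory complexes ran from -0.33 for complex II to -0.09 for complex IV. Complex II, which links the TCA cycle to the respiratory chain, had the lowest median, -0.33 over 4 genes, from SdhB (-0.44) to SdhC (-0.21). SdhB was at -0.48 and 0.31 with RU486 and at 0.28 and -0.11 without. Complex III had a median of -0.24 over 10 genes with UQCR-C2 lowest at -0.48, and complex V had -0.23 over 15 genes with ATPsynbeta, the catalytic subunit of ATP synthase, lowest at -0.40. Complex I had -0.15 over 36 genes, from ND-75 (-0.44) to ND-51L1 (0.45), and complex IV had -0.09 over 11 genes, from COX4 (-0.38) to COX4L (0.37). The highest members of complexes I, IV and V (ATPsynepsilonL, 0.18) are paralogs of a main subunit gene. COX4L was near 0 in all 4 libraries, and ND-51L1 had values from -0.10 to 0.15.

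Protein genes of the mitochondrial genome, 13 in all, had a median of -0.17, from mt:ND3 (-0.25) to mt:ND2 (0.02). Glycolysis and trehalose genes had a median of -0.20 over 25 genes, with 24 below the median of all genes, the lowest being Ald (aldolase, -0.42) and the highest ImpL3 (lactate dehydrogenase, 0.03). The 72 mitochondrial ribosomal protein genes stood at -0.01, from mRpL2 (-0.18) to mRpL34 (0.16), and 0.05 when set against the cytosolic ribosomal protein genes, so that their sign depends on the reference. Set against the ribosomal protein genes, the medians were -0.27 for complex II, -0.18 for complex III, -0.17 for complex V, -0.09 for complex I and -0.18 for the TCA cycle, below that of the ribosomal proteins themselves.

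**Figure D4:**
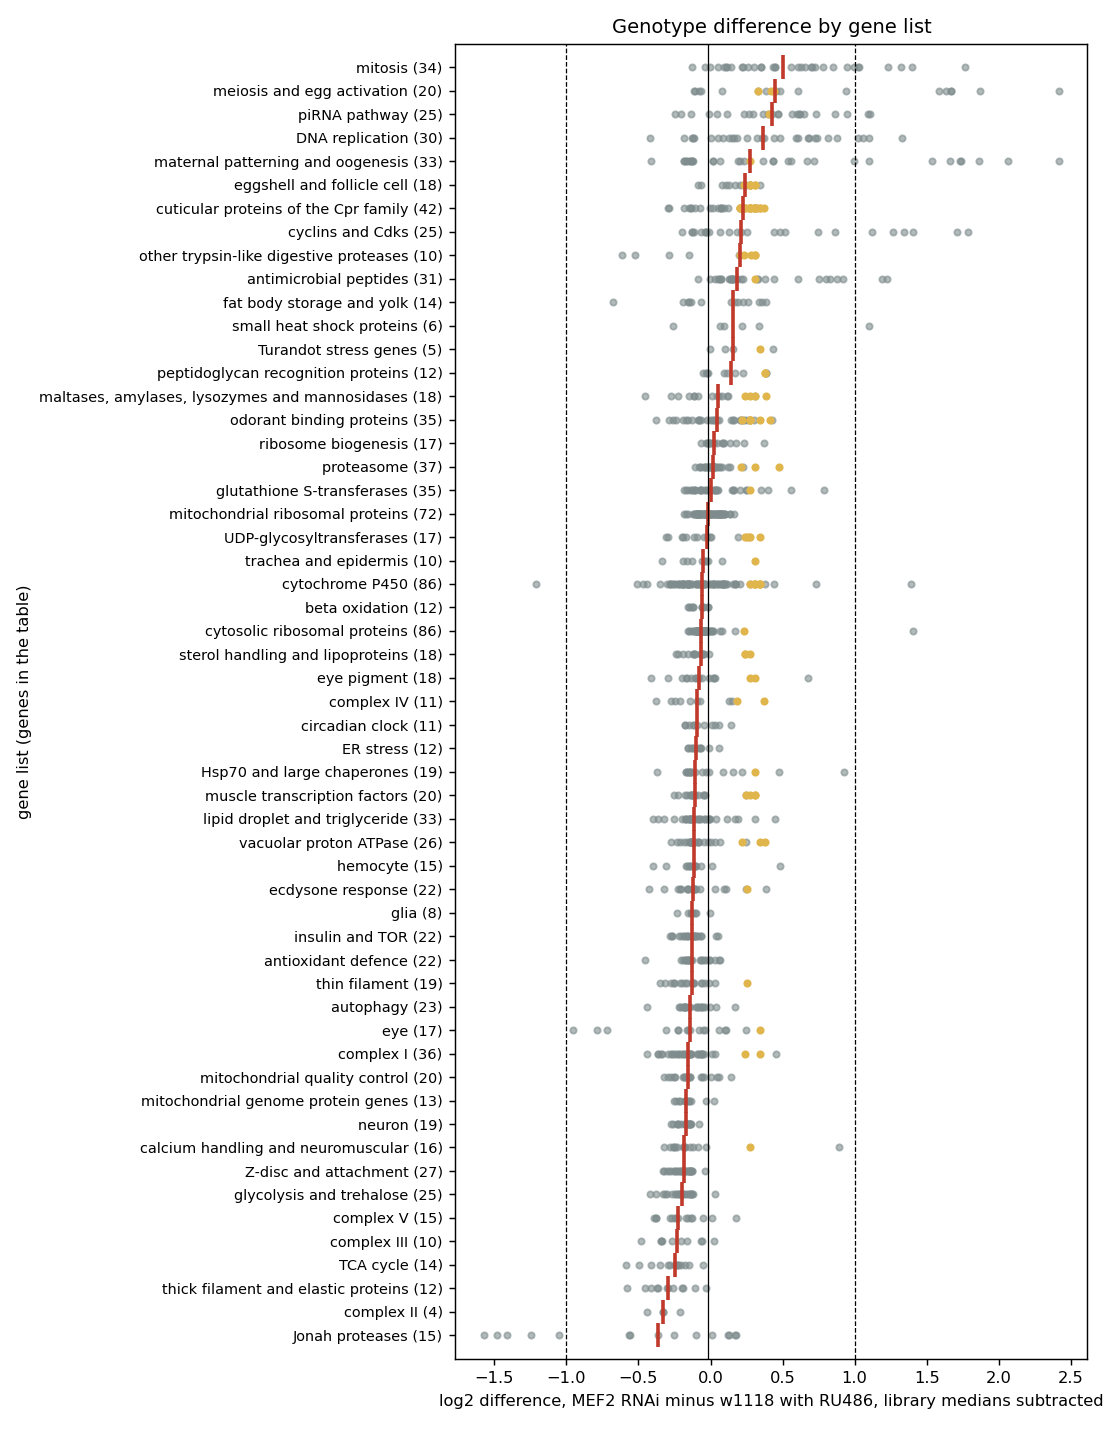
Genotype difference with RU486 of every gene in 55 lists after median subtraction, 1 point for each gene (yellow where all 4 values lie within 0.1 of 0) and a red bar at the list's median, with lists in order of their medians. Dashed lines mark the 2-fold rule, and the lists run from Jonah proteases (-0.37) and complex II (-0.33) to mitosis (0.50).

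Genes for ribosomal proteins, the proteasome and ribosome biogenesis had medians close to that of all genes. The 86 cytosolic ribosomal protein genes had a median of -0.06, and 75 of them were below the median of all genes. Apart from RpS5b none passed the 1.5-fold rule, the lowest being sta (-0.15). The 37 proteasome genes had 0.01, from Rpt3 (-0.11) to Rpt6R (0.48), a paralog near 0 in all libraries, and 17 ribosome biogenesis genes had 0.02. Of 6 small heat shock protein genes, Hsp27 was 2-fold higher. It was at 0.79 in MEF2 RNAi and 0.04 in w1118 with RU486 and at -0.30 and -0.53 without, so it was higher with RU486 in both genotypes. Its difference was 1.10, while l(2)efl, another small heat shock gene, had -0.26. Among 19 Hsp70 and large chaperone genes, Hsp70Ba was highest at 0.93 and Hsc70-5, the mitochondrial chaperone, lowest at -0.37. Hsp70Ba belongs to a cluster of near-identical copies whose reads may be split between them. Autophagy genes (23) had a lower median of -0.14, from Atg14 (-0.44) to Atg5 (0.17), and 20 of the 23 were below the median of all genes.

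Genes for fat storage differed little. Of 33 genes for lipid droplets and triglyceride none passed the 2-fold or the 1.5-fold rule, and the median was -0.11. Of all genes 0.515% were 2-fold higher and 0.161% lower, and 1.34% were 1.5-fold higher and 0.523% lower. The absence of calls among the 33 is near these shares. FASN3, a fatty acid synthase, was lowest, at -0.36 in MEF2 RNAi and 0.38 in w1118 with RU486 and at 0.30 and -0.32 without. Its difference was -0.40. The lipase gene Lip3 was highest at 0.45. Genes for sterol handling and lipoproteins (18) had a median of -0.07, from LpR2 (a lipophorin receptor, -0.24) to Npc2d (0.27, near 0 in all libraries). Beta oxidation genes (12) had -0.06 and lay between -0.16 and -0.02. Insulin and TOR genes (22) had -0.13, from ImpL2 (-0.28), a secreted antagonist of insulin-like peptides, to Ilp6 (0.05).

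Several antimicrobial peptide genes were higher in MEF2 RNAi in both pairs after median subtraction. Of 31 genes, 2 were 2-fold higher (0.515% of all genes) and 8 were 1.5-fold higher (1.34%) with RU486, and none was lower by either rule. Def (defensin) was at 0.41 in MEF2 RNAi and -0.47 in w1118 with RU486 and at 0.66 and -0.61 without. Its difference was 1.22 with RU486 and 0.90 without. AttB (attacin B) was at 0.40 and -0.45 with RU486 and at 0.70 and -0.65 without, with differences of 1.19 and 0.98. In both genes the 2 MEF2 RNAi libraries were above the 2 w1118 libraries. The median of the list was 0.18 with RU486 and 0.26 without, but as deposited it was -0.16 with RU486, with Def (0.88) and AttB (0.84) still above 0. AttA and AttB are near-identical copies, so their counts may not be independent. Peptidoglycan recognition genes (12) had a median of 0.14, with PGRP-LB highest at 0.39, and Turandot stress genes (5) had 0.15.

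No gene of the neuron or glia lists passed the 1.5-fold rule, which is near the share of all genes (1.34% higher and 0.523% lower). All 19 neuron genes were below the median of all genes, from brp, the active zone protein bruchpilot (-0.27), to Gad1 (-0.08). Of the 19, 16 were highest in w1118 with RU486, against 44.6% of all genes. Glia genes (8) had a median of -0.13. Of 17 eye genes 3 were 1.5-fold lower, against 0.523% of all genes. The lowest was ninaE, the main rhodopsin, at -0.30 in MEF2 RNAi and 1.0 in w1118 with RU486 and at -0.01 and -0.70 without. Its difference was -0.95 with RU486 and 0.32 without. The arrestin genes Arr1 (-0.79) and Arr2 (-0.72) followed, named after their values were seen. Thoraces hold no compound eyes, and the mean of the 5 eye markers was 0.44 in w1118 with RU486 against -0.17, -0.02 and -0.25 in MEF2 RNAi with RU486, MEF2 RNAi without it and w1118 without it. How much head tissue was in any sample was not tested. In fat body genes (14) the lowest was tobi, a glucosidase gene that responds to diet, at -0.68 (-0.56 and 0.46 with RU486), and the highest was Fbp2 at 0.38.

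Of the other lists, hemocyte genes (15) had a median of -0.11, from NimC1 (-0.40) to He (0.48), trachea and epidermis genes (10) -0.05 and circadian clock genes (11) -0.09. Ecdysone response genes (22) had -0.12, vacuolar proton ATPase genes (26) -0.11, mitochondrial quality control genes (20) -0.16, antioxidant genes (22) -0.13 and endoplasmic reticulum stress genes (12) -0.10. In the 42 cuticular protein genes of the Cpr family the median was 0.22, but 21 of the 42 were near 0, and the deposited median was -0.12. Odorant binding protein genes (35) had 0.05, UDP-glycosyltransferase genes (17) -0.03, maltase, amylase and lysozyme genes (18) 0.05 and eye pigment genes (18) -0.08. No gene of the lists in this paragraph passed the 2-fold rule (0.515% of all genes were higher and 0.161% lower).

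The pair without RU486 gave the same genotypes with the driver uninduced and shares no library with the fed pair. In it 8 genes (0.0615%) were 2-fold higher and 1 (0.00769%) was 2-fold lower in MEF2 RNAi. As deposited the counts were 28 and 0, and set against ribosomal protein genes 5 and 6. Of the 67 genes higher with RU486, 2 (2.99%) were also 2-fold higher without it, which is 25% of the 8. None of the 21 lower genes passed the 2-fold rule there. The 2 shared genes were CG3397 and CG34227. CG3397 (chromosome 3R, 11983098 to 11984541) was at 0.44 and -0.34 with RU486 and at 0.84 and -0.94 without, with differences of 1.12 and 1.41. CG34227 was at 0.33 and -0.53 with RU486 and at 0.88 and -0.68 without, with differences of 1.20 and 1.19. In both, the 2 MEF2 RNAi libraries were above both w1118 libraries.

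At the 1.5-fold rule, 14 of the 175 higher genes (8%) and 3 of the 68 lower genes (4.41%) passed in both pairs. As deposited, 5 of 78 higher genes (AttB, CG3397, CG34227, CycB and Def) and 1 of 815 lower genes (CG3964) did. The 14 hold 6 genes for antimicrobial peptides or related immune effectors on chromosome 2R (Def, AttA, AttB, AttC, Dro and Listericin), together with CG3397, CG34227, GluRIIC, CG4757, Cyp4e3, CG12224, CG7296 and w. The 3 lower genes were CG32984 (-0.97 with RU486 and -0.93 without), mthl8 (-0.75 and -0.83) and CG14298 (-0.61 and -0.82). As deposited, the differences of these 3 without RU486 were -0.56, -0.47 and -0.46 and did not pass the 1.5-fold rule. Names outside the gene lists were chosen after the values were seen.

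Most called genes, in contrast, had near-equal deposited values in the libraries without RU486. The difference there was 0.02 in osk, CycA, Jon99Fii and Alp2 alike. Whether such values come from genes with few or no reads was not tested, so they need not mean equal expression. In 37 of the 67 higher genes (55.2%) and 18 of the 21 lower genes (85.7%) the libraries without RU486 were within 0.1 of each other. The share was 22.4% of all genes and 9.08% of genes that were not near 0. After median subtraction a gene with equal deposited values in that pair has a difference of -0.37, so these genes lie at about -0.35 on the axis without RU486 and the median subtraction moves them in opposite directions in the 2 pairs. Among higher genes within 0.25 of 0 without RU486 after the subtraction were Pen (-0.09), CG18190 (-0.16), CycB3 (-0.19), CycE (-0.19), polo (-0.24) and swa (-0.24), and in the lower set NaPi-T (-0.05), Jon99Cii (-0.16) and Jon99Ciii (-0.21).

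**Figure D5:**
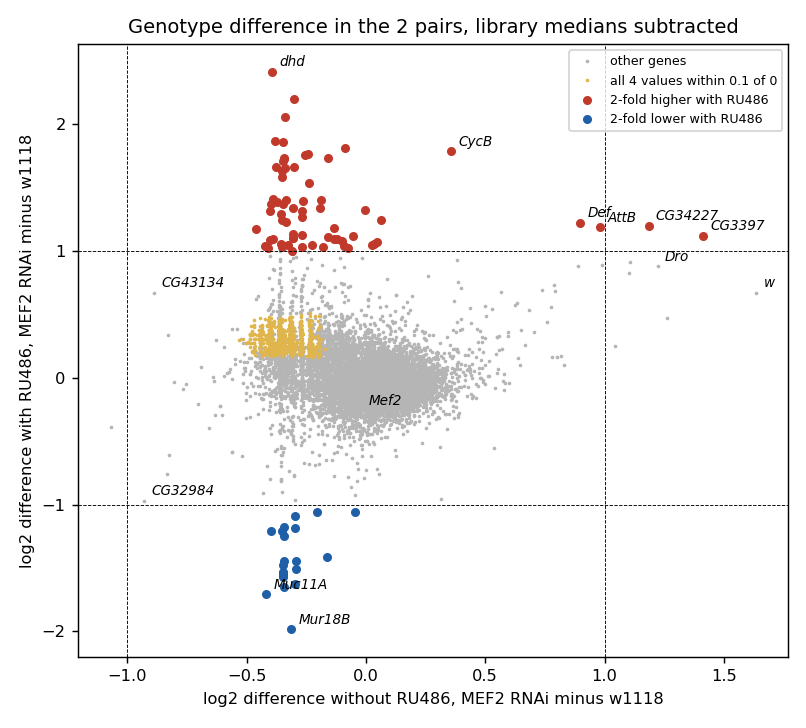
Genotype difference of each gene with RU486 (vertical) and without RU486 (horizontal) after median subtraction, with genes near 0 in yellow, 2-fold higher genes in red, 2-fold lower genes in blue and dashed lines at the 2-fold rule. Most red and blue points lie at about -0.35 on the horizontal axis, and CG3397 and CG34227 are the red points beyond the 2-fold line in both pairs.

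The higher genes were spread over 2L, 2R, 3L, 3R and X, while the lower genes lay more on 3R. Of 66 higher genes placed in the BDGP6 annotation, 18 were on chromosome arm 3R (27.3%, against 24.7% of all placed genes), 15 on 3L (22.7% against 19.5%) and 14 on X (21.2% against 16%). Of the 21 lower genes 10 (47.6%, against 24.7% of all placed genes) were on 3R and 1 (4.76% against 19.5%) on 3L. Those on 3R include the 4 Jon99 genes and the neighbours CG17751 and CG17752. CG7882 and CR46269 of the lower set overlap on 2R. In all, 4 higher genes and 8 lower genes had another gene of their own set within 10 kb. No share over all genes was computed for these counts.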

How the data were processed

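Total RNA of 8 thoraces per library was made into TruSeq stranded libraries, per the labels. The values are log2 values, centred per gene, which the authors deposited for 13012 genes. The aligner, counter, normalization and genome build are not given in the sources used here. If low counts were drawn towards 0 before the deposit, differences of such genes are too small. Every per-sample column was mapped to a sample, and 0 columns were left unused. The members and the gene lists were chosen with earlier results of these data known.

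The genotype difference was the log2 value in MEF2 RNAi minus that in w1118, as deposited and after the median over all genes was subtracted from each library. A gene was called at a difference of 1 (2-fold), with no pseudocount, filter or test, since each condition has 1 library. The genes named were Mef2 and w, the 15 highest and the 15 lowest differences, in each of 56 lists every member past 2-fold or else the highest and the lowest, genes called in both pairs, and called genes within 0.25 of 0 without RU486. Other names were chosen after their values were seen. Listed names were matched by symbol or by RefSeq synonym (48 genes). Of the table's names, 12959 matched a gene of the Ensembl release 115 annotation of BDGP6, which gave positions and overlaps. The planned search of promoter sequences for motifs was not run, since no sequence was used here. Alternatives were deposited values, other reference genes, a 1.5-fold rule and 2 filters. Python 3.11.15, pandas 2.3.3, numpy 2.4.6 and, for plots, matplotlib 3.10.9 were used, and the code was checked on simulated data.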

Additional observations from a re-analysis of the deposited data

Results flagged for a closer look

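The median genotype difference of all genes had opposite signs in the pairs on the deposited scale. It was -0.36 with RU486 and 0.38 without RU486. CG43134 was the only gene that was at least 1.5-fold higher in one pair and 1.5-fold lower in the other after median subtraction, with a difference of 0.67 with RU486 and -0.89 without. On the deposited scale 29 genes were lower with RU486 and higher without by that rule, and 12 genes differed in the opposite way when ribosomal protein genes were the reference. The deposited values of CG43134 were 0.11 in MEF2 RNAi and -0.22 in w1118 with RU486, and -0.21 and 0.32 without. Neither difference between the pairs was tested, since each condition has 1 library.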

How the results depend on the processing

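On the deposited values, 26 genes were 2-fold higher and 52 lower in place of 67 and 21, and 0% of the higher genes were also higher without RU486. With the 1.5-fold rule the counts were 175 and 68, and the shares also called without RU486 were 8% and 4.41% in place of 2.99% and 0%. A rule that the value in MEF2 RNAi with RU486 lie outside the range of the other 3 libraries kept 63 higher genes and left 10 lower genes. Without genes near 0 or with shared values the median deposited difference of all genes was -0.40. The cause was not tested. With library medians over genes not near 0 or over ribosomal protein genes, 72 and 76 genes were higher and 21 and 19 lower. Of 59 named genes past 2-fold, 40 were past 2-fold on the deposited scale and 57 with the ribosomal reference. All 59 kept their direction on the deposited scale, which is certain because the 2 scales differ by a constant 0.35 only. Of 56 list medians, 19 were above 0, against 4 on the deposited scale and 23 with the ribosomal reference. No paired analysis was possible because a condition is 1 library and none of the results is a test. Leaving out a library was not possible for the same reason. The motif search in promoters was not run. Depth is unknown.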
